A study of Mus musculus with 23 samples.

Results

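The TNF superfamily ligands described here are 7 genes, Tnfsf8, Tnfsf9, Tnfsf10, Tnfsf12, Tnfsf13, Tnfsf13b and Tnfsf14, of the 53090 genes listed for microglia of young, young repopulated, old and old repopulated mice. They were chosen by symbol, because Tnfsf8 was higher in young repopulated than in young microglia, so that contrast is given for them as values with no test. Microglia are the resident macrophages of the brain, and the drug PLX5622 blocks CSF1R, the receptor they need to survive. Once the drug is stopped, new microglia fill the brain again, which is called repopulation. All mice were female and C57BL/6. The 4 groups were young mice on drug-free chow (Y, n = 7), young mice whose microglia had been depleted and had returned (Y-re, n = 3), old mice on drug-free chow (O, n = 5) and old mice after depletion and return (O-re, n = 8). The drug was given in chow at 1200 ppm, and the controls ate the same chow without it. The sources used here give no ages in months, no length of the diet and no time allowed for return. The labels' protocols describe both magnetic CD11b selection followed by culture and sorting by flow cytometry, and the RNA text names the sorted cells. Replicate numbers below only name libraries. Whether the libraries of a group came from separate mice was not stated per library, so the p-values measure the spread between these libraries.

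TNF superfamily ligands are trimeric proteins, made at the cell membrane and in part released, that bind receptors of the TNF receptor superfamily. The receptors recruit TRAF adaptor proteins or death-domain proteins and switch on NF-kappaB, kinase cascades or cell death. Macrophages are a known source of several of these ligands, including BAFF and APRIL, which keep B cells and plasma cells alive.

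Levels are counts per 1000000 mapped counts after TMM scaling (CPM), and a difference is a log2 fold change with its standard error (SE) from edgeR's quasi-likelihood fit of all 23 libraries. A gene is called where its Benjamini-Hochberg adjusted p over 18720 tested genes is under 0.05. The totals were 43.93 to 47.85 M counts in Y (M, 1000000 counts), 44.9 to 47.77 M in Y-re, 43.66 to 50.98 M in O and 45.73 to 58.19 M in O-re. Y replicate 3 stood apart, with a count in only 16399 genes, and without it the same ligands were called in each tested comparison. The titles number the libraries, and numbers 1 to 11 (3 Y, 2 O and 5 O-re) differed from numbers 12 to 24 (4 Y, 3 Y-re, 3 O and 3 O-re), so values within each run of numbers are given beside the pooled ones. The 10 microglial marker genes summed to 26110 to 31970 CPM in Y, 23070 to 26800 in Y-re, 10370 to 26580 in O and 9814 to 30010 in O-re. The 10 monocyte and neutrophil marker genes summed to 28.4 to 291.8 CPM in Y, 114.6 to 355.1 in Y-re, 236 to 2179 in O and 129.8 to 2986 in O-re. In old against young, 8 of those 10 genes were called higher, and in old repopulated against young 9 of 10 were. Markers of border-associated macrophages (7 genes) summed to 58.2 to 223.2 CPM in Y, 294.8 to 410.8 in Y-re, 182.2 to 878.1 in O and 70.3 to 1235 in O-re. Dendritic cell markers (6 genes) summed to 61.9 to 96.5 CPM in Y, 187.8 to 297.2 in Y-re, 117.3 to 339.9 in O and 63.6 to 284.9 in O-re. T and NK cell markers summed to at most 5.61 CPM in any library, with Cd3g and Nkg7 at 0 in all Y libraries. Neural and glial markers (9 genes) summed to 42.95 to 81.6 CPM and endothelial and mural markers (5 genes) to 19.2 to 82.1 CPM over all libraries. Cd79b, a component of the B cell receptor named here after its values were seen, had 12.9 to 18.8 CPM in Y, 0.9999 to 4.76 in Y-re, 6.1 to 16 in O and 0.883 to 11.2 in O-re. In bulk RNA, more cells of a type and more RNA per cell cannot be told apart.

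A pair of members shared a pattern across the libraries: Tnfsf8, which encodes CD30 ligand, and Tnfsf13b, which encodes BAFF. The stretches of DNA just upstream of these genes are shown because the results turn on this pair. RefSeq's promoter table (GRCm38.p6) held an entry for 5 of the 7 members, and the 187 bases from 250 to 64 bases before the RefSeq start are printed 5′ to 3′ on the gene's strand, with capitals marking each GGAA, or TTCC on the other strand, the core bound by Ets factors. PU.1, the Ets factor that macrophages and microglia depend on, binds such a core. The Tnfsf8 stretch lies on the minus strand at chr4:63861348-63861534 and the Tnfsf13b stretch on the plus strand at chr8:10006217-10006403.
Tnfsf8: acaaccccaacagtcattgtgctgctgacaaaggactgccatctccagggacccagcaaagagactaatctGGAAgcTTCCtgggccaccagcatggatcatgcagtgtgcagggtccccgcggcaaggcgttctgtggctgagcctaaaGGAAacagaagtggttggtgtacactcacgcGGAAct
Tnfsf13b: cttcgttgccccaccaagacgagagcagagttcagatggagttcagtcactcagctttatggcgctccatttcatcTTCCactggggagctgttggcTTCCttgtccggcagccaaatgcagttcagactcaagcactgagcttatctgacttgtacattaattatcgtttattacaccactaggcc
The Tnfsf8 stretch held 4 such cores and 55.6% G and C, and the Tnfsf13b stretch held 2 cores and 48.7% G and C. The core is short and common: 87.5% of 32851 RefSeq promoter stretches of the same length held at least 1, with a median of 2.0. Neither stretch held the longer PU.1 core GAGGAA (17.8% of all stretches), the AP-1 site TGANTCA (5.1%), TATAAA (8.6%), the interferon response core (2.3%) or the NF-kappaB motif (2.9%), each searched on both strands. The GAGGAA core contains the GGAA core. A match is only a run of letters and shows no binding. Bases closer to the RefSeq start than 64 were not searched, in these or in the other stretches, so a motif there would be missed.

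Tnfsf8 (ENSMUSG00000028362.2, chr4:63831308-63861347, minus strand, GRCm38) encodes the ligand of CD30, a receptor of activated lymphocytes. In Y its level was 2.28 CPM in the lowest library, 3.36 CPM at the median and 10.1 CPM in the highest. In the 3 Y-re libraries it was 25.4, 26.3 and 29.75 CPM, so each lay above every Y library. In the 5 O libraries it was 11.1, 11.8, 9.15, 11.7 and 13.9 CPM, and 4 of these exceeded the highest Y library. In O-re it was 11.02 CPM in the lowest library, 18.6 CPM at the median and 23.2 CPM in the highest. Tnfsf8 was thus the lowest in Y, then O, then O-re, and highest in Y-re, with overlapping ranges between Y and O and between O and O-re. The summed markers of border-associated macrophages and of dendritic cells were also higher in all 3 Y-re libraries than in all Y libraries. Itgax made up most of the dendritic cell sum, at a mean of 73.6 CPM in Y and 231.3 CPM in Y-re. The fitted difference of young repopulated from young was positive for 6 of 7 border-associated macrophage genes and 4 of 6 dendritic cell genes. Mean CPM was lower in Y-re than in Y for Cd163 (5.46 against 13.4), Xcr1 (0.333 against 0.881) and Clec9a (0.271 against 0.312). The part of these cells in the values of Tnfsf8 was not tested.

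Tnfsf8 rose in old against young microglia by 1.29 ± 0.27 (log2 fold change ± SE, 2.44-fold, edgeR adjusted p = 0.0122). It rose by 1.94 ± 0.26 in old repopulated against young (3.83-fold, edgeR adjusted p = 9.77e-05), and all 8 O-re libraries lay above all 7 Y libraries. Both of these comparisons use the Y libraries that the choice of Tnfsf8 also used. Old repopulated against old shares no library with that choice. There the difference was 0.65 ± 0.27 (1.57-fold) with an edgeR adjusted p of 0.375, and 6 of 8 O-re libraries exceeded the highest O library. Leaving out 1 library at a time gave 0.57 to 0.73 and adjusted p of 0.219 to 0.626, so no call was made in any of these fits. The fitted difference of young repopulated from young, which chose the gene, was 2.53 ± 0.31 (5.76-fold). That of old repopulated from young repopulated was -0.59 ± 0.31, with all 8 O-re libraries below all 3 Y-re libraries. Of all tested genes 2.26% did not overlap between these groups, 1.05% with O-re lower. The difference between the effect of repopulation in old mice and its effect in young mice (the interaction) was -1.88 ± 0.41, given as a value with no test because it contains the contrast used to choose the gene. It was -2.78 within library numbers 12 to 24, which hold all Y-re libraries, and -2.53 with voom and sample quality weights.

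Within library numbers 12 to 24 the difference of Tnfsf8 was 1.97 for old against young (edgeR adjusted p = 0.000233), 0.44 for old repopulated against old (adjusted p = 0.224), 2.40 for old repopulated against young (adjusted p = 2.85e-05) and 3.22 for young repopulated against young. Within numbers 1 to 11, which hold 3 Y, 2 O and 5 O-re libraries, the first 3 were 0.71, 0.77 and 1.48, with edgeR adjusted p of 1, 1 and 0.194. The direction was the same in both runs, and of the fits within 1 run only those of the higher numbers gave a call. Within numbers 1 to 11 edgeR called only 1, 0 and 2 of all 18746 tested genes in these 3 comparisons. The lack of a call there therefore says little about Tnfsf8. Among the Y libraries themselves, the 3 of numbers 1 to 11 had more Tnfsf8 and more Tnfsf13b than each of the 4 of numbers 12 to 24, while the ranges of the other 5 members overlapped. For comparison, 14.9% of all tested genes had ranges that did not overlap between these runs of Y libraries, 5.63% with the lower numbers higher. All 3 Y-re libraries belong to the higher numbers.

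**Figure D1:**
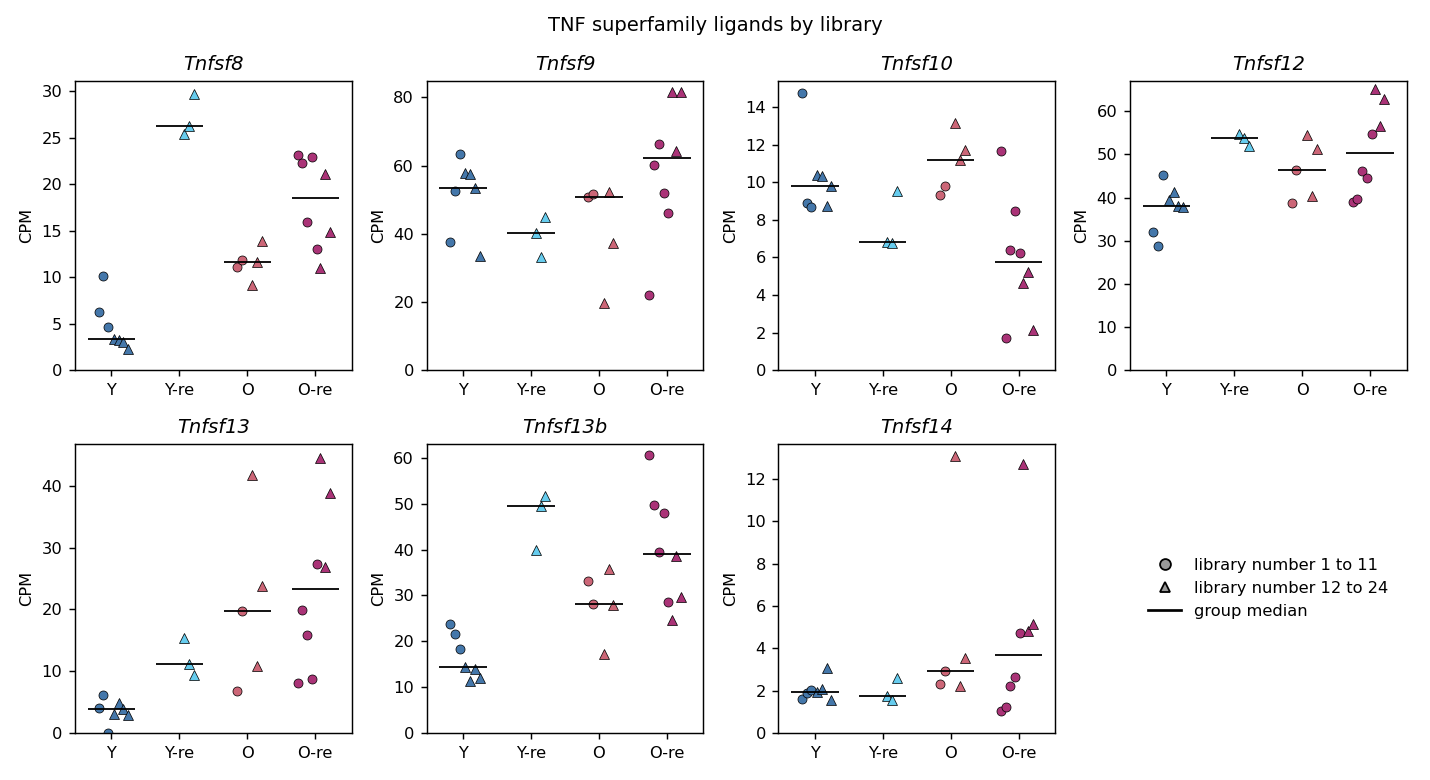
Level of each of the 7 ligands (y axis, CPM, linear and starting at 0) in every library of the 4 groups (x axis), with circles for library numbers 1 to 11, triangles for 12 to 24 and a line at the group median. Tnfsf8 and Tnfsf13b are high in all 3 Y-re libraries, Tnfsf13 spreads widely in O and O-re, and Tnfsf10 is low in 7 of the 8 O-re libraries.

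Tnfsf13b (ENSMUSG00000031497.9, chr8:10006467-10039072, plus strand, GRCm38) encodes BAFF, the survival factor of B cells. In Y it was at 11.3 CPM in the lowest library, 14.4 CPM at the median and 23.8 CPM in the highest. The Y-re libraries had 39.8, 49.5 and 51.65 CPM, all above Y. The O libraries had 33.1, 28.1, 17.15, 35.8 and 27.9 CPM, with 4 of 5 above the highest Y library. In O-re it ranged from 24.55 CPM over a median of 39.1 CPM to 60.6 CPM, and every O-re library exceeded every Y library.

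Tnfsf13b rose in old repopulated against young by 1.27 ± 0.20 (2.42-fold, edgeR adjusted p = 0.000601), with 1.10 within library numbers 1 to 11 (adjusted p = 0.222) and 1.27 within 12 to 24 (adjusted p = 0.000767). In old against young the difference was 0.79 ± 0.22 with an edgeR adjusted p of 0.0566, just outside the threshold. That contrast passed with DESeq2 (0.79, adjusted p = 0.0194), with voom and sample quality weights (1.08, adjusted p = 0.000884), with the run of library numbers as a term (0.85, adjusted p = 0.0118) and within library numbers 12 to 24 (1.07, adjusted p = 0.00651). It also passed without Y replicate 1 (edgeR adjusted p = 0.0381), Y replicate 2 (0.0475), O-re replicate 1 (0.0285) or O-re replicate 6 (0.0416). It did not pass with only the groups compared (0.78, edgeR adjusted p = 0.0613), and within numbers 1 to 11 it was 0.53 (adjusted p = 1). The contrast of old repopulated with old gave 0.49 ± 0.22 (edgeR adjusted p = 0.425), with 5 of 8 O-re libraries above the highest O library. The differences without a test were 1.51 ± 0.25 for young repopulated from young and -0.24 ± 0.26 for old repopulated from young repopulated.

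Across the 23 libraries the log2 CPM values of Tnfsf8 and Tnfsf13b had a Pearson correlation of 0.94 and a Spearman correlation of 0.95. Each was the other's closest match among 9542 genes with a mean of at least 5 CPM. The correlation is a description, since libraries of 1 group or 1 run of numbers are not independent points. Next after Tnfsf13b in likeness to Tnfsf8 came Slc11a1 (0.90), a metal transporter of phagosomes, Axl (0.89), a receptor kinase for the clearance of dead cells, St8sia6 (0.88), a sialyltransferase, and Arhgap15 (0.83). By Spearman correlation ranks 4 and 5 went to Itga9 (0.88) and H2-DMa (0.87), and Arhgap15 ranked at 103. Axl had 280.8 ± 35.8 CPM (SD, n = 7) in Y, 943.7 ± 160.1 in Y-re (n = 3), 463 ± 84.0 in O (n = 5) and 759.7 ± 214.2 in O-re (n = 8), which is the same order of groups as for Tnfsf8. Slc11a1 had 182.8 ± 19.1 CPM in Y, 329.7 ± 15.0 in Y-re, 245.3 ± 19.1 in O and 306.2 ± 32.5 in O-re. Without Y replicate 3 the same 5 genes led by Pearson correlation, at 0.94 for Tnfsf13b and 0.86 for Arhgap15. The other members were less like Tnfsf8: 0.52 for Tnfsf13, 0.43 for Tnfsf12, 0.02 for Tnfsf14, -0.07 for Tnfsf9 and -0.36 for Tnfsf10.

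**Figure D2:**
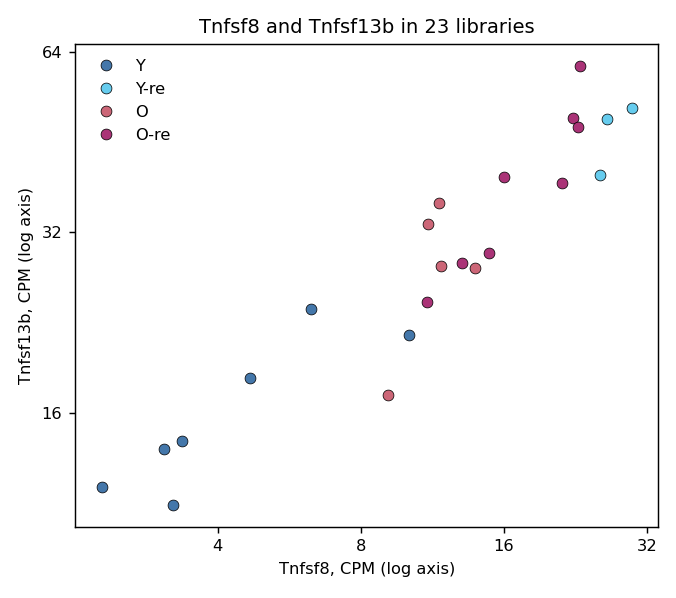
Tnfsf13b (y axis, CPM, log scale) against Tnfsf8 (x axis, CPM, log scale), 1 point per library, coloured by group. The 23 libraries lie along 1 diagonal (Pearson correlation of log2 CPM 0.94), with the Y libraries at the low end and the Y-re libraries and part of the O-re libraries at the high end.

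Tnfsf13 encodes APRIL, the plasma cell survival factor (ENSMUSG00000089669.7, chr11:69682846-69685784, minus strand, GRCm38). It lies next to Tnfsf12 (ENSMUSG00000097328.7, chr11:69686250-69695849, minus strand), and both lie inside the span of the read-through gene Tnfsfm13 (ENSMUSG00000018752.19, chr11:69682577-69696098, minus strand). The values of these 3 genes are uncertain because the authors' counting had to divide shared reads among them. Tnfsf13 was listed at 0 in Y replicate 3, and over Y it had a median of 3.94 CPM and a highest value of 6.07 CPM. The Y-re libraries had 15.4, 11.15 and 9.38 CPM. The O libraries had 6.72, 19.8, 41.7, 10.9 and 23.8 CPM, all above Y but spread over a wide range. In O-re the lowest library had 8.02 CPM, the median was 23.35 CPM and the highest had 44.6 CPM, again all above Y and within much the same range as O.

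Tnfsf13 rose in old against young by 2.53 ± 0.59 (5.77-fold, edgeR adjusted p = 0.0218) and in old repopulated against young by 2.74 ± 0.56 (6.67-fold, edgeR adjusted p = 0.00319). Without Y replicate 3 these were 2.31 (edgeR adjusted p = 0.00455) and 2.52 (adjusted p = 0.000671). The first call was lost without Y replicate 4 (adjusted p = 0.0514), Y replicate 7 (0.0523), O replicate 3 (2.10, 0.129) or O replicate 5 (0.0587), and in a fit of only the O and Y libraries (edgeR adjusted p = 0.0516). Within library numbers 12 to 24 the differences were 2.77 (adjusted p = 0.000584) and 3.31 (adjusted p = 6.72e-05), and within 1 to 11 they were 1.98 (adjusted p = 1) and 2.26 (adjusted p = 0.441). Old repopulated against old gave 0.21 ± 0.57 (edgeR adjusted p = 0.96). Young repopulated stood 1.75 ± 0.66 from young, with all 3 libraries above Y.

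Summed over Tnfsf12, Tnfsf13 and Tnfsfm13, which avoids the division of reads, the locus had 60.5 CPM at the median in Y, 93.1 in Y-re, 120.7 in O and 126.2 in O-re. The sum rose by 0.94 ± 0.23 in old against young (edgeR adjusted p = 0.0293) and by 1.01 ± 0.21 in old repopulated against young (adjusted p = 0.00347). It differed by 0.07 ± 0.23 in old repopulated against old (adjusted p = 0.972). Tnfsfm13 alone rose by 1.30 ± 0.32 (adjusted p = 0.0304) and 1.24 ± 0.30 (adjusted p = 0.00776) in the comparisons of old and old repopulated with young.

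In O and O-re the level of Tnfsf13 ran with the monocyte and neutrophil markers, and not with those alone. In O, sorting the 5 libraries by the summed markers (236, 398.7, 823.4, 1252 and 2179 CPM) also sorted them by Tnfsf13. In O-re the highest Tnfsf13, 44.6 CPM, was in replicate 6, the library with the highest marker sum, 2986 CPM, and the lowest, 8.02 CPM, was in replicate 1, which had the lowest sum, 129.8 CPM. For Tnfsf13b the same libraries stood at the other end: O replicate 3 and O-re replicate 6 had the lowest Tnfsf13b of their groups, 17.15 and 24.55 CPM, and also the lowest Tnfsf8, 9.15 and 11.02 CPM. Summed microglial markers were lowest of the O libraries in O replicate 3, 10370 CPM, and stood at 10610 CPM in O-re replicate 6. Both groups had their highest microglial sums in replicate 1, 26580 CPM in O and 30010 CPM in O-re. Border-associated macrophage markers summed lowest in replicate 1 of each group, with 182.2 CPM in O and 70.3 CPM in O-re. Their highest sums were in O replicate 3, 878.1 CPM, and O-re replicate 6, 1235 CPM. In Y and Y-re the order by monocyte and neutrophil markers did not hold for Tnfsf13 alone. Y replicate 3, with the highest such sum of its group, 291.8 CPM, was the library with Tnfsf13 at 0. That 0 is uncertain, as shared reads were divided. The same library had the highest Tnfsfm13 (41.65 CPM) and the highest summed locus (86.88 CPM) of Y. Y-re replicate 2, at 355.1 CPM of these markers, had 11.15 CPM of Tnfsf13 against 15.4 CPM in Y-re replicate 1, at 196.3 CPM. The part of these other cells in the values of Tnfsf13 was not tested.

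**Figure D3:**
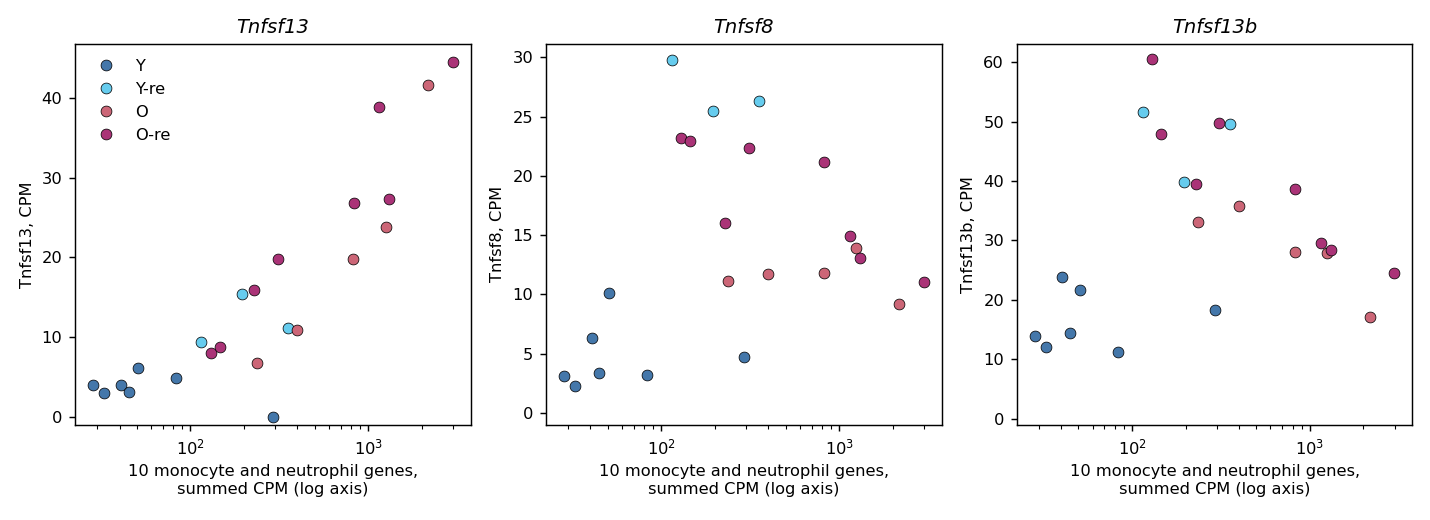
Tnfsf13, Tnfsf8 and Tnfsf13b (y axes, CPM) against the summed CPM of 10 monocyte and neutrophil marker genes (x axes, log scale), 1 point per library, coloured by group. Tnfsf13 is highest in the O and O-re libraries with the largest sums (2179 and 2986 CPM), where Tnfsf8 and Tnfsf13b are at the lowest values of their groups. The same 2 libraries had the largest border-associated macrophage sums of their groups (878.1 and 1235 CPM), which are not plotted.

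Tnfsf12 encodes TWEAK, a ligand of tissue repair and inflammation that acts through the receptor Fn14. In Y it had 28.9 CPM in the lowest library, 38.0 CPM at the median and 45.2 CPM in the highest, and in the Y-re libraries 54.6, 53.7 and 52.0 CPM, all above Y. The O libraries had 38.8, 46.45, 54.4, 40.3 and 51.3 CPM, and the O-re libraries 39.05 to 65.2 CPM with a median of 50.4 CPM, so both overlapped Y. Tnfsf12 rose in old repopulated against young by 0.44 ± 0.12 (1.36-fold, edgeR adjusted p = 0.015), with 5 of 8 libraries above the highest Y library, 0.34 within numbers 1 to 11 (adjusted p = 0.49) and 0.66 within 12 to 24 (adjusted p = 0.000225). In old against young the difference was 0.30 ± 0.13 (edgeR adjusted p = 0.271), and in old repopulated against old 0.14 ± 0.13 (adjusted p = 0.804). Both passed within numbers 12 to 24, at 0.32 (adjusted p = 0.0342) and 0.34 (adjusted p = 0.0437).

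Tnfsf10 (ENSMUSG00000039304.11, chr3:27317028-27342427, plus strand, GRCm38) encodes TRAIL, which can trigger apoptosis through death receptors. It was the only member whose fitted value was lower in O-re than in both O and Y. Y libraries had 8.70 to 14.7 CPM with a median of 9.82 CPM, Y-re libraries 6.81, 6.76 and 9.56 CPM, and O libraries 9.34, 9.80, 13.2, 11.2 and 11.7 CPM. In O-re the lowest library had 1.71 CPM, the median was 5.75 CPM and the highest 11.7 CPM, and 7 of 8 libraries lay below every O library and below every Y library. The difference of old repopulated from old was -0.92 ± 0.30 (0.527-fold), with an edgeR adjusted p of 0.206. That of old repopulated from young was -0.81 ± 0.28 (0.569-fold), with an edgeR adjusted p of 0.0509.

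Without O-re replicate 1, at 11.7 CPM, these differences of Tnfsf10 were -1.15 (edgeR adjusted p = 0.0498) and -1.01 (adjusted p = 0.00689), and without O-re replicate 4 the second was -0.91 (adjusted p = 0.0327). Within library numbers 12 to 24 they were -1.58 (adjusted p = 0.00519) and -1.29 (adjusted p = 0.00158), and within 1 to 11 they were -0.47 (adjusted p = 1) and -0.64 (adjusted p = 0.622). With voom and sample quality weights the adjusted p was 0.0143 and 0.000576, with DESeq2 0.0949 and 0.0234, and with the run of numbers as a term 0.123 and 0.0273. Neither passed with only the groups compared (edgeR adjusted p = 0.491 and 0.0991). Old against young gave 0.11 ± 0.31 (edgeR adjusted p = 0.923), and the sign turned to -0.17 within numbers 1 to 11. The lowest Tnfsf10 was in O-re replicates 2 and 8, at 1.71 and 2.14 CPM, where the 7 border-associated macrophage markers summed to 809.7 and 1191 CPM, against 70.3 CPM in O-re replicate 1. O-re replicate 6, with the largest such sum, 1235 CPM, had 4.64 CPM of Tnfsf10. In O the order was otherwise: replicate 3 had the largest such sum, 878.1 CPM, and the highest Tnfsf10, 13.2 CPM. Microglial markers summed to 16700 and 9814 CPM in O-re replicates 2 and 8, to 30010 CPM in O-re replicate 1 and to 10370 CPM in O replicate 3. The part of border-associated macrophages and of microglia in the values of Tnfsf10 was not tested.

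Tnfsf9 (ENSMUSG00000035678.7) encodes the ligand of CD137, a costimulatory receptor of T cells. Its ranges overlapped between all 4 groups: 33.4 to 63.5 CPM in Y (median 53.6), 33.2 to 45.0 CPM in Y-re, 19.7 to 52.2 CPM in O and 22.01 to 81.7 CPM in O-re (median 62.15). The difference was -0.26 ± 0.26 in old against young (edgeR adjusted p = 0.698), 0.48 ± 0.25 in old repopulated against old (adjusted p = 0.538) and 0.22 ± 0.23 in old repopulated against young (adjusted p = 0.557). Old repopulated against old passed within library numbers 12 to 24 (1.05, adjusted p = 0.0372), while within 1 to 11 it was -0.05 (adjusted p = 1). Young repopulated stood -0.36 ± 0.31 from young. Tnfsf9 thus gave no difference that held in both runs of library numbers.

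Tnfsf14 (ENSMUSG00000005824.6) encodes LIGHT, a ligand of lymphoid tissue organisation and T cell activation. It was low in most libraries, at 1.56 to 3.08 CPM in Y and 1.58 to 2.58 CPM in Y-re. The O libraries had 2.31, 2.93, 13.1, 2.19 and 3.54 CPM, and the O-re libraries 1.04 to 12.7 CPM with a median of 3.69 CPM. The single high values were again in O replicate 3 and O-re replicate 6. These libraries had the largest sums of their groups for monocyte and neutrophil markers and for border-associated macrophage markers. Old against young gave 1.24 ± 0.51 (edgeR adjusted p = 0.227), which became 0.43 without O replicate 3. Old repopulated against young gave 1.09 ± 0.46 (adjusted p = 0.112), which became 0.62 without O-re replicate 6. This contrast passed without O-re replicate 1 (1.27, adjusted p = 0.0408), within numbers 12 to 24 (1.81, adjusted p = 0.0163) and with voom and sample quality weights (0.91, adjusted p = 0.0442). For old repopulated against old it was -0.15 ± 0.50 (edgeR adjusted p = 0.969).

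Of the 7 ligands, 2 were called higher in old against young (Tnfsf8 and Tnfsf13), where 2.83% of all tested genes were called and 2.6% were called higher. In old repopulated against young 4 were called higher (Tnfsf8, Tnfsf12, Tnfsf13 and Tnfsf13b), where 15.2% of all genes were called and 9.29% were called higher. In old repopulated against old edgeR called 0 of 7, where 0.278% of all genes were called, and 3 had an unadjusted p under 0.05 (Tnfsf8, Tnfsf10 and Tnfsf13b), as did 1941 of the 18720 genes. DESeq2 also called 0, and voom with sample quality weights called 1. All 7 members passed the filter on low counts. Their median log2 fold change was 0.79 in old against young, 0.21 in old repopulated against old, 1.09 in old repopulated against young and 0.51 in young repopulated against young, against medians of -0.01, 0.00, -0.02 and -0.04 over all tested genes. The ranges of O-re and Y did not overlap for 3 members (2.24% of all genes, 0.983% higher), those of O and Y for 1 (2.21%, 1.43% higher), and those of O-re and O for 0 (0.737%). Tnfsf13 is among the 3 and is the 1, and the summed locus overlapped Y in both comparisons. Between Y-re and Y 4 members did not overlap, as did 12.1% of all genes, 5.97% higher. Tnfsf8, whose rise in that contrast chose the set, is among the 4. Neither this count nor the median of 0.51 is therefore a test of the members. The counts and medians of old and of old repopulated against young also contain Tnfsf8 and the Y libraries used to choose it. They are therefore no test of the members as a set either. The comparisons with young share the Y libraries, and those with old share the O libraries.

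**Figure D4:**
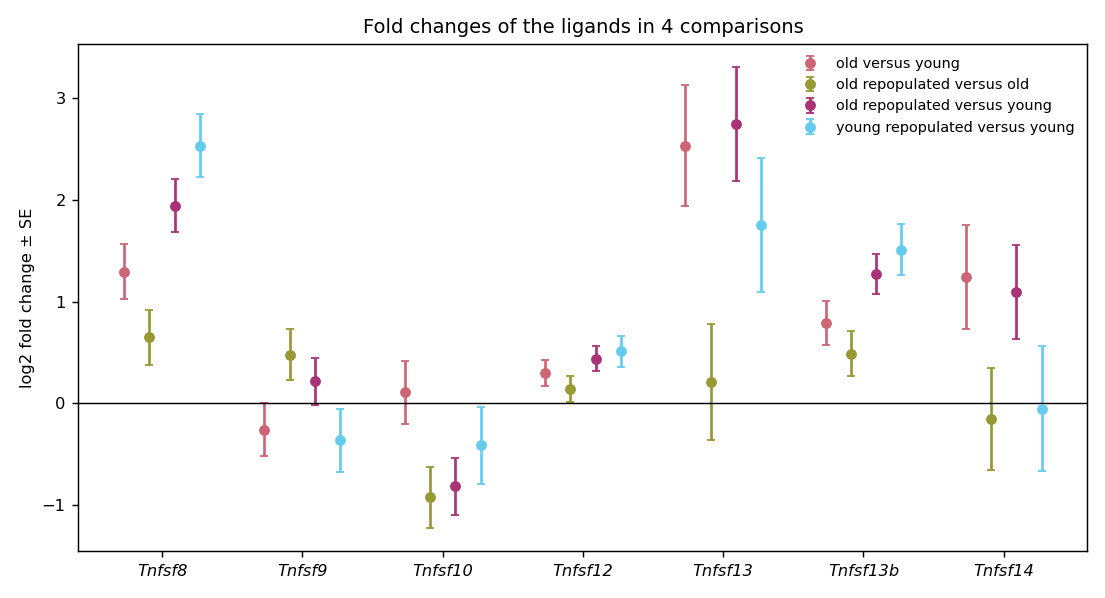
Log2 fold change (y axis, points, with bars of ± 1 SE from edgeR) of each ligand (x axis) in 4 comparisons, shown by colour. The points for old repopulated versus old lie between -0.92 (Tnfsf10) and 0.65 (Tnfsf8), while the largest values are those of Tnfsf13 and Tnfsf8 against young.

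Per length, as the deposited TPM (transcripts per 1000000), the order of the ligands differed between groups. In Y, Tnfsf9 (median 79.2 TPM) and Tnfsf12 (48.6 TPM) led with overlapping ranges, followed by Tnfsf13b (16.9 TPM), and Tnfsf8 was last at 1.55 TPM, overlapping Tnfsf14 (1.83 TPM). In Y-re, Tnfsf12 (63.4 TPM), Tnfsf9 (54.9 TPM) and Tnfsf13b (53.5 TPM) overlapped in turn, and Tnfsf8 stood at rank 5 with 11.4 TPM, above Tnfsf10 (2.64 TPM) with no overlap. In O, Tnfsf8 also stood at rank 5, with 5.33 TPM, with a range that overlapped Tnfsf10 (4 TPM). In O-re it had 7.96 TPM and overlapped its neighbours, Tnfsf13 (27.3 TPM) and Tnfsf14 (3.14 TPM).

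The receptors were taken from a list of 12, of which 10 passed the filter on low counts. None of the 10 was called by edgeR in old against young, old repopulated against old, old repopulated against young, young repopulated against young or the interaction. CD30 itself, Tnfrsf8, had a median of 0.42 TPM in Y, 0.47 in Y-re, 0.56 in O and 0.52 in O-re. Tnfrsf9, the receptor of the Tnfsf9 product, had a median of 0 TPM in Y and in Y-re, 0.55 in O and 0.33 in O-re. The TRAIL death receptor Tnfrsf10b lay between 0.06 and 2.1 TPM, the decoy receptors Tnfrsf22 and Tnfrsf23 between 0.05 and 2.65 and between 2.89 and 11.84 TPM, and the soluble decoy Tnfrsf11b was listed at 0 in all 23 libraries. Among the receptors of BAFF and APRIL, Tnfrsf13b (TACI) had medians of 32.55 to 40.9 TPM, Tnfrsf17 (BCMA) of 1.25 to 7.39 TPM, and Tnfrsf13c, the BAFF receptor of B cells, at most 0.17 TPM in any library. Both receptors of LIGHT were present, Tnfrsf14 with medians of 18.4 to 24.95 TPM and Ltbr with 55.1 to 68.3 TPM.

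Tnfrsf12a encodes Fn14, the receptor of TWEAK. It had 12.2 to 20.0 CPM in Y, 8.62 to 10.4 CPM in Y-re, 17.5 to 26.7 CPM in O and 9.06 to 19.03 CPM in O-re. Its difference was 0.59 ± 0.18 in old against young (edgeR adjusted p = 0.0919), -0.76 ± 0.18 in old repopulated against old (adjusted p = 0.0754) and -0.69 ± 0.23 in young repopulated against young (adjusted p = 0.138), where all 3 Y-re libraries lay below all Y libraries. The first 2 passed with DESeq2 (adjusted p = 0.0492 and 0.00881), with voom and sample quality weights (0.0027 and 0.0193) and within library numbers 12 to 24 (0.84, adjusted p = 0.0025, and -0.56, adjusted p = 0.0368). Within numbers 1 to 11 they were 0.21 and -0.75, each with an adjusted p of 1. With only the groups compared the first passed (edgeR adjusted p = 0.0477) and the second did not (0.313). Neither passed with the run of numbers as a term (edgeR adjusted p = 0.0786 and 0.0536). The first also passed without Y replicate 3 (0.67, edgeR adjusted p = 0.0462) or O replicate 1 (0.69, 0.0429), and the second without O-re replicate 6 (-0.84, 0.047).

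**Figure D5:**
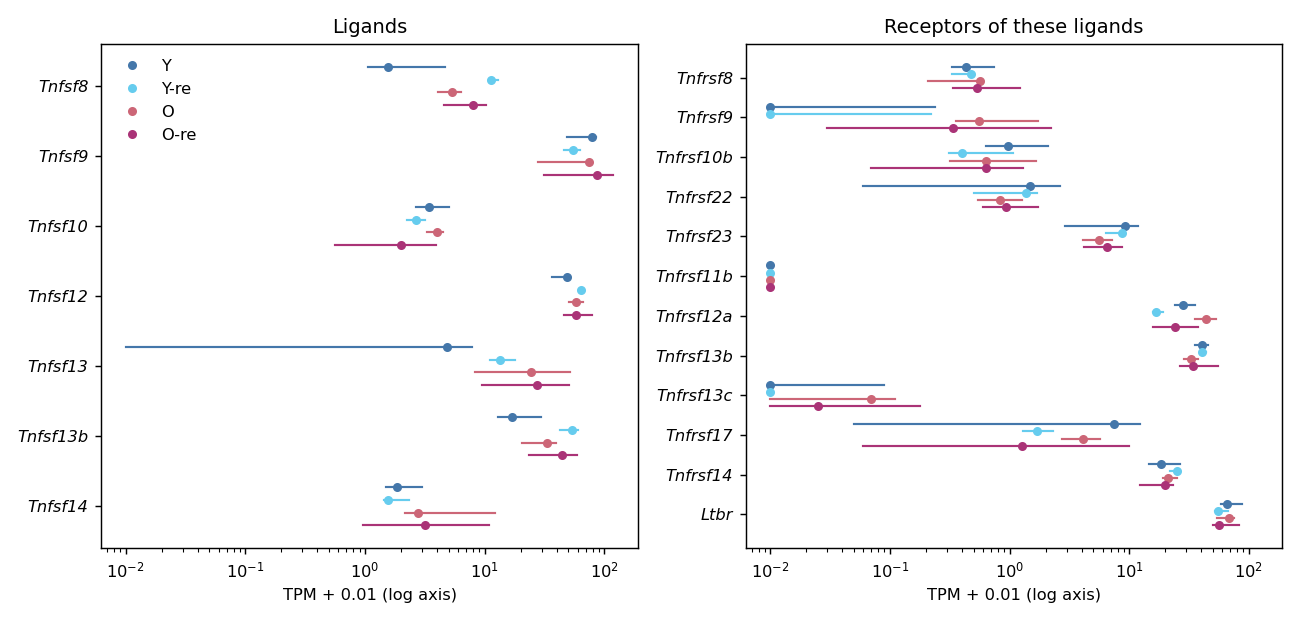
TPM + 0.01 (x axis, log scale) of the 7 ligands (left) and the 12 receptors (right), with a point at the group median and a line from the lowest to the highest library of each group. The median of Tnfsf8 is 1.55 TPM in Y and 11.4 TPM in Y-re, and its receptor Tnfrsf8 lies between 0.42 and 0.56 TPM at the medians of the 4 groups.

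The other genes of the pathway were 11 further ligands, the 12 receptors above, 16 further receptors and 26 adaptors and NF-kappaB genes, 65 in all, of which 55 were tested. None of the 5 tested further ligands was called, among them Tnf, the founding member of the family, at 191.5 to 700.6 CPM over all libraries. In old against young 1 of the 55 was called, the NF-kappaB kinase gene Ikbkb, which rose by 0.37 ± 0.10 (edgeR adjusted p = 0.0454). Its call was lost in 13 of 23 fits that left out 1 library, with the highest adjusted p, 0.266, without O replicate 3. In old repopulated against old edgeR called 0 of 55, with 7 at an unadjusted p under 0.05, and DESeq2 called 2. In young repopulated against young, where 1.34% of all genes were called (0.828% higher), 1 of the 55 was called, the inhibitor of NF-kappaB Nfkbib, which fell by 0.67 on the log2 scale (SE 0.17, edgeR adjusted p = 0.0476). Leaving out 1 library at a time removed this call in 18 of 23 fits, with adjusted p up to 0.253. In the interaction edgeR called 0 of 55, and 0 of all 18720 genes, of which 1542 had an unadjusted p under 0.05. DESeq2 called 46 genes there.

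In old repopulated against young 8 of the 55 were called, 2 higher and 6 lower, a share close to the 15.2% of all genes called there. The higher ones were Traf1, an adaptor that is itself an NF-kappaB target (2.72 ± 0.71, edgeR adjusted p = 0.0128), and Cd40, a costimulatory receptor (1.52 ± 0.49, adjusted p = 0.0374). Traf1 was at 33.4 CPM in the highest O library and 38.5 CPM in the highest O-re library, against medians of 6.89 and 8.36 CPM. The lower ones were the death receptor gene Tnfrsf21 (-0.47 ± 0.13, adjusted p = 0.021), the adaptor Traf5 (-0.67 ± 0.21, 0.0325), Nfkbib (-0.47 ± 0.12, 0.012) and the NF-kappaB subunit Rela (-0.38 ± 0.11, 0.0243). Rel (-0.37 ± 0.11, 0.0263) and Tnfrsf25 (-2.09 ± 0.60, 0.0212) were called too, and are named after their values were seen. Tnfrsf25 was near the floor, with a mean of 0.998 CPM in Y and 0.232 CPM in O-re, so the size of its fall is uncertain. The calls of Cd40, Traf5, Rel and Rela were lost without single libraries, with adjusted p up to 0.096, 0.0889, 0.0754 and 0.0565. Within library numbers 1 to 11 none of the 8 passed, and Cd40 stood at 0.02 there against 3.07 within 12 to 24. Within 12 to 24, Rel (-0.11, adjusted p = 0.517), Nfkbib (-0.17, 0.252) and Tnfrsf25 (-2.05, 0.0904) did not pass either, and Rel and Nfkbib had the larger differences within 1 to 11, -0.56 and -0.75.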

How the data were processed

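Poly(A) RNA was sequenced as stranded libraries from 2.4 to 147 ng of RNA with single reads of 50 nt, per the labels' protocols. The submitters' processing notes name FastQC 0.11.5, STAR, RSEM, limma and the build GRCm38. The sources used here do not name the annotation or say whether counting used strand. The authors deposited 1 RSEM gene table per library, per the file headers, with expected counts, which are estimated shares of reads per gene, and TPM, which the authors scaled per length and per 1000000 transcripts. Of the deposited expected counts, 87.26% were whole within 1e-06, and all were rounded before testing.

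The fit used edgeR 4.0.16 in R 4.3.3 (filterByExpr with a minimum count of 10, TMM, quasi-likelihood test, 23 libraries, no covariate), tested on simulated data. Members were tested in 3 contrasts, and pathway genes also in young repopulated against young and the interaction. TPM served to rank genes by level and to describe receptor levels, with no test. Likeness used log2 CPM with a prior count of 2. Alternatives were RLE factors, no filter, DESeq2 1.42.0, voom from limma 3.58.1 with sample quality weights, a fit of the compared groups alone, the run of library numbers as a term, each run alone, the summed Tnfsf12 locus, and leaving out each library. Likeness without Y replicate 3 was chosen after seeing the data. Called pathway genes of at least 1 CPM were named by size, up to 3 per list, direction and contrast, and likeness named 5 genes for Tnfsf8 and 2 for each other member. The members, lists and naming rule were chosen with earlier results of these data known. Coordinates come from GENCODE M21 (GRCm38), only for identical identifier versions, and promoter letters from RefSeq (GRCm38.p6). The summed level of 1 marker list is not reported here.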

Additional observations from a re-analysis of the deposited data

Results flagged for a closer look

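In 4 of 21 sets of library values of 1 ligand within 1 group, the highest library lay far from its nearest neighbour, measured as a share of the group's range. The threshold flags about 1 set in 20 only where values are independent and normally distributed. These CPM were not transformed and the same libraries recur across ligands, so 4 of 21 cannot be set against that rate. For Tnfsf10, Y replicate 1 had 14.73 CPM. For Tnfsf14, O replicate 3 had 13.06 CPM, O-re replicate 6 had 12.7 CPM and Y replicate 6 had 3.08 CPM. O replicate 3 and O-re replicate 6 were also the libraries of their groups with the most Tnfsf13, at 41.7 and 44.6 CPM.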

How the results depend on the processing

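No paired analysis was possible because the labels give the groups no shared replicate numbers, so no replicate block could be fitted. RLE factors moved the median of all genes by at most 0.01. In the 3 tested contrasts, 6 values of members turned their sign or reached 0 outside the fits that left out a library: within library numbers 1 to 11, Tnfsf9 in old repopulated against old (-0.05) and against young (-0.05) and Tnfsf10 in old against young (-0.17). The others were Tnfsf14 in old repopulated against old, at 0.25 with voom and sample quality weights, 0.00 with the run of numbers as a term and 0.28 within 12 to 24. In that contrast, leaving out each library gave -0.02 (without O replicate 1) to 0.64 for Tnfsf13 and -0.62 to 0.65 (without O replicate 3) for Tnfsf14. None of these values was called, and the cause was not tested. Among values without a test, Tnfsf12 in old repopulated against young repopulated (-0.07) was 0.09 with the run term, 0.18 within 12 to 24 and 0.32 for the summed locus. The interaction of Tnfsf14 (-0.11) was 0.24 with voom, 0.55 with the run term and 0.39 within 12 to 24, and its young repopulated value (-0.05) was 0.01 with voom. Without single libraries they ran from -0.57 to 0.7 and from -0.3 to 0.12.

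Members called in old against young numbered 1 with only the groups compared, 4 within numbers 12 to 24 and 0 within 1 to 11. In old repopulated against old they numbered 1 with voom and 3 within 12 to 24, and in old repopulated against young 0 within 1 to 11. Leaving out each library gave 1 to 3, 0 to 1 and 4 to 6, and 0.57 to 0.73 for Tnfsf8 in old repopulated against old.

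Over all genes, old against young (530 called) gave 970 with DESeq2, 2363 with voom, 2691 within 12 to 24, 1 within 1 to 11 and 100 to 941 without single libraries. Old repopulated against old (52) gave 34 without a filter, 312 with DESeq2, 413 with voom, 0 with only the groups compared, 114 with the run term, 2187 within 12 to 24, 0 within 1 to 11 and 5 to 185 without single libraries. Old repopulated against young (2847) gave 6646 with voom, 4585 with the run term, 7068 within 12 to 24, 2 within 1 to 11 and 1955 to 4772 without single libraries. Young repopulated against young (251) gave 165 without a filter, 834 with DESeq2, 2574 with voom, 1255 with only the groups compared, 1598 within 12 to 24 and 33 to 407 without single libraries. The interaction (0) gave 46 with DESeq2, 151 with voom, 7 with the run term, 1524 within 12 to 24 and 0 to 1 without single libraries.

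Of the 55 pathway genes, old against young (1) gave 0 without a filter, 4 with DESeq2, 10 with voom, 2 with only the groups compared, 2 with the run term, 13 within 12 to 24, 0 within 1 to 11 and 0 to 5 without single libraries. Old repopulated against old (0) gave 2 with DESeq2, 1 with voom, 5 within 12 to 24 and 0 to 1 without single libraries. Old repopulated against young (8) gave 13 with DESeq2, 22 with voom, 13 with the run term, 26 within 12 to 24, 0 within 1 to 11 and 5 to 12 without single libraries. Young repopulated against young (1) gave 0 with RLE factors, 0 without a filter, 3 with DESeq2, 10 with voom, 4 with only the groups compared, 6 within 12 to 24 and 0 to 1 without single libraries. The interaction (0) gave 3 within 12 to 24 and 0 to 0 without single libraries. The numbers 1 to 11 hold 2 O libraries and no Y-re library, which limits every test within them.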

Other observations

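The remaining ligands had closest matches of their own across the 23 libraries, given here as Pearson correlations of log2 CPM with no test. St8sia6, a sialyltransferase gene, stood at 0.93 with Tnfsf13b, next after Tnfsf8, and had 11.5 ± 3.75 CPM (SD, n = 7) in Y, 43.3 ± 3.31 in Y-re (n = 3), 28.8 ± 11 in O (n = 5) and 51.1 ± 25.4 in O-re (n = 8). Tspan13, a tetraspanin gene, stood at 0.92 with Tnfsf10 and Etnk1, an ethanolamine kinase gene, at 0.91. Tspan13 had 54.6 ± 13.5 CPM in Y and 33.4 ± 15.95 in O-re, in the same direction as Tnfsf10. Tnfsf12 was closest to Antxr2 and Taok3, both at 0.90, and Tnfsf9 to Phldb1 (0.83) and Mmd (0.80). Tnfsf14 was closest to Ranbp2 (0.94) and Cacul1 (0.93).

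For Tnfsf13 the match rested on 1 library. Over all libraries the closest genes were Helb (0.94) and Nom1 (0.93), and without Y replicate 3, where Tnfsf13 was listed at 0, they ranked at 353 (0.88) and 725 (0.81). The first places then went to Olfm1 and Anxa1, both at 0.98 over 22 libraries. Between ligands other than Tnfsf8 and Tnfsf13b, the Pearson correlation with the largest size was 0.66, between Tnfsf12 and Tnfsf14. The most negative was -0.56, between Tnfsf9 and Tnfsf10. By Spearman correlation the largest was 0.80, between Tnfsf12 and Tnfsf13, whose Pearson correlation over all libraries was 0.46.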
